A study of Bos taurus with 30 samples.

Results

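The genes that supply, make, break down and bind retinoic acid were followed in day 15 bovine embryos produced in vitro (IVP) or in vivo (IVV). The 10 symbols were given by name, ALDH1A2, CYP26A1, RDH10, DHRS3, RBP4, STRA6, CRABP1, CRABP2, RARB and RARG, and each matched 1 Entrez gene ID, so that all 10 of 10 were found among the 35092 genes of the count table. IVP embryos were made from Holstein oocytes collected at slaughter, matured, fertilized with frozen semen of 1 Holstein bull, cultured in serum-free medium to the blastocyst stage and moved to recipient cows. IVV embryos came from superovulated Holstein donors inseminated with semen of the same bull. On day 15 both kinds were flushed from the uterus, embryos without a visible disc were discarded, and the embryonic disc (ED) and a piece of the surrounding extra-embryonic membranes (EEM) were frozen for poly(A) RNA sequencing. There were 7 IVP and 9 IVV embryos with an ED library and 6 IVP and 8 IVV embryos with an EEM library, 30 libraries from 17 embryos in all, and 13 embryos (5 IVP and 8 IVV) had both. IVV embryos came from few donor cows and IVP embryos were carried by few recipient cows, so procedure and the cow that carried the embryo cannot be told apart. The study does not state how many cows gave the oocytes of IVP embryos. Replicates are separate embryos, and the labels give neither their length nor their sex. The study reports that its IVP embryos were shorter than its IVV embryos and that a smaller share of them had a disc. Procedure and embryo length therefore cannot be told apart here.

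Retinoic acid is the active form of vitamin A and acts as a signal between cells in the gastrulating embryo. Retinol travels bound to RBP4 and enters cells through the receptor STRA6. RDH10 oxidizes retinol to retinal, DHRS3 carries out the reverse step, ALDH1A2 oxidizes retinal to retinoic acid, and CYP26A1 breaks retinoic acid down. Inside the cell CRABP1 and CRABP2 bind retinoic acid, CRABP1 being linked to its breakdown and CRABP2 to its delivery to the nucleus, where receptors such as RARB and RARG, paired with RXR partners, switch target genes. RARB, CYP26A1, STRA6, DHRS3 and CRABP2 are themselves known targets of the signal, while RBP4 and RDH10 are also made by endoderm-derived and extra-embryonic tissues.

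Library totals ran from 48713218 to 63037371 counts, and levels are given as CPM, the count scaled to library size with TMM factors. The floor of detection, 3 counts in each library, stood at 0.0587 CPM over the IVP and 0.0589 CPM over the IVV membranes. These limits cover counting error only. Levels were compared between groups for 1 gene at a time and not between genes, since no transcript lengths were at hand. Trophoblast markers were also present in the disc pieces. The summed level of 14 such markers was 12040 to 66740 CPM in the ED of IVP embryos and 28050 to 44280 CPM in that of IVV embryos, against 31570 to 67730 and 32310 to 54510 CPM in the EEM. Of 6 tested epiblast markers, all 6 were called higher in the ED than in the EEM of IVV embryos, and 3 of 6, POU5F1, NANOG and OTX2, in IVP embryos. Of all genes tested, 15.6% were called higher in the ED of IVV and 4.18% in that of IVP embryos. POU5F1 was at 16.5 to 227 CPM in ED and 0.419 to 2.43 CPM in EEM libraries, whereas DNMT3B (79.3 to 482 and 45.6 to 157 CPM), LIN28A (18.8 to 165 and 8.46 to 77.5 CPM) and SALL4 (21.3 to 83.3 and 9.34 to 40.3 CPM) overlapped between the tissues. The epiblast markers SOX2 and UTF1 were listed at 0 in every library. In such bulk pieces, fewer cells of a type and less RNA per cell cannot be told apart.

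**Figure D1:**
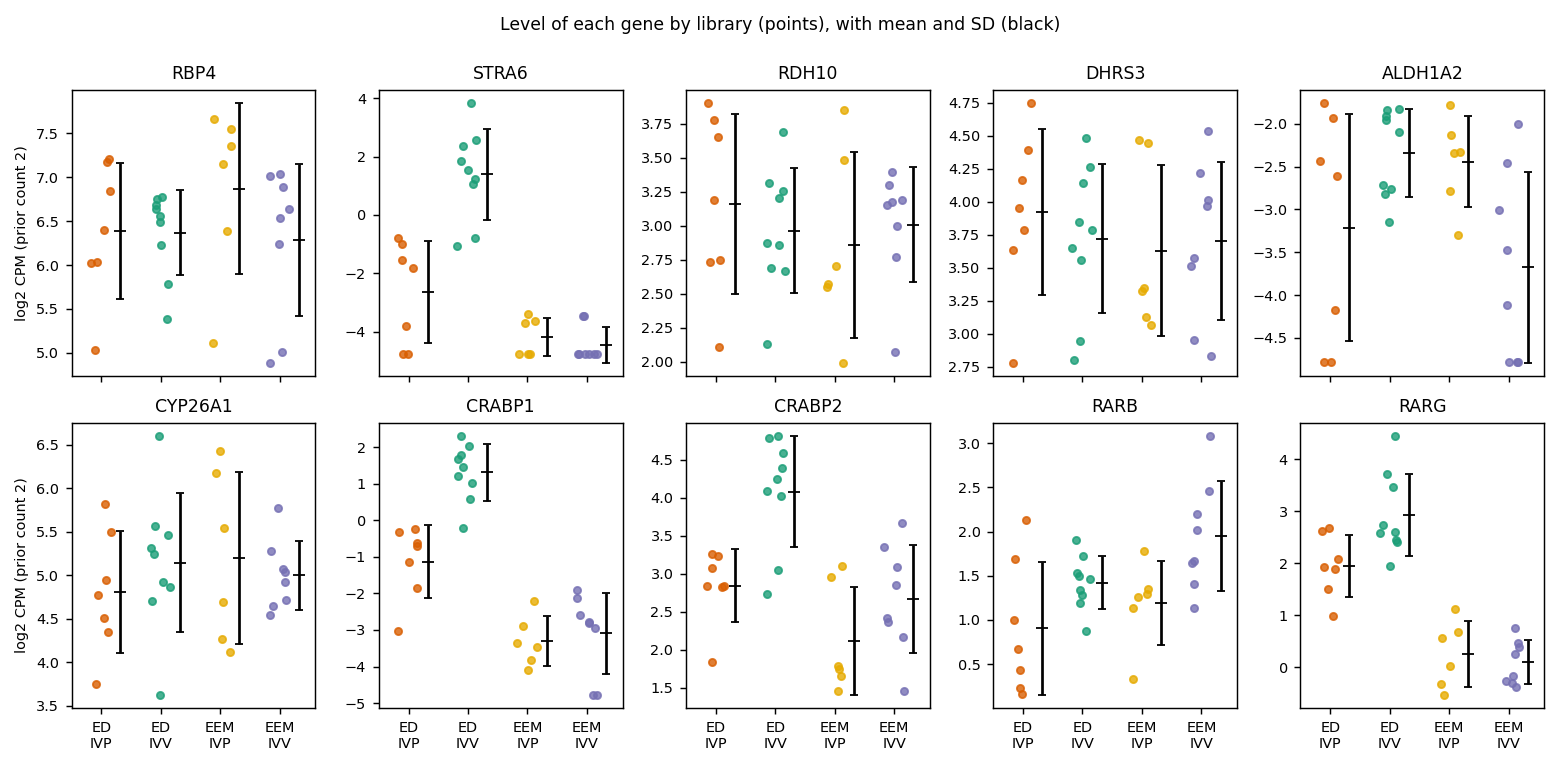
Level of the 10 genes in every library as log2 CPM (y axis, prior count 2, a separate scale for each gene) for the 4 groups (x axis); points are libraries and black marks give mean and SD. CRABP1 separates the ED of all IVP from all IVV embryos, while RDH10, DHRS3, RBP4 and CYP26A1 overlap widely in the 4 groups.

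The first comparison asked which of these genes differed in the ED between IVP and IVV embryos. All 10 passed the filter on low counts, and 4 of them were lower in IVP embryos (STRA6, CRABP1, CRABP2 and RARG), while none was higher. Among the 15733 genes tested, 4.95% were called lower and 6.34% in either direction. The median log2 fold change of the 10 genes was -0.57, beside -0.01 over all genes tested. Genes of uptake, cytoplasmic binding and the receptor RARG were thus the ones called, and the enzymes were not.

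STRA6 (Entrez 515911), the receptor through which cells take up retinol from RBP4, had the widest gap. It stood at 0 CPM at the lowest, 0.248 at the median and 0.542 at the highest in the ED of the 7 IVP embryos. In the 9 IVV embryos these values were 0.444, 2.87 and 14.2 CPM. Of the IVV discs 8 lay above every IVP disc, namely all but VE19, and 2 IVP discs, those of IVP10 and IVP11, held no count of it. The fitted log2 fold change was -4.31 (SE 0.76), or 19.8-fold lower in IVP (adjusted p = 0.00112, edgeR). VE19 and VE4, at 0.444 and 0.544 CPM, were the lowest IVV discs and VE5, at 14.2 CPM, the highest, so that the IVV group spread 32.1-fold.

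CRABP1 (Entrez 282201), a cytoplasmic binder of retinoic acid, was the single member without overlap in the ED. IVP discs held 0.0864 CPM at the lowest, 0.574 at the median and 0.815 at the highest, and IVV discs 0.83, 2.73 and 4.96 CPM. The 7 IVP discs were all below the 9 IVV discs, although IVP11 at 0.815 and VE24 at 0.83 CPM nearly met. The share of all genes without overlap of the groups was not counted in either tissue. The log2 fold change was -2.48 (SE 0.41), a 5.59-fold lower level in IVP (adjusted p = 0.000587).

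CRABP2 (Entrez 493998), the binder that carries retinoic acid to its receptors, was lower in IVP discs by a smaller factor. Its level ran from 3.54 through a median of 7.12 to 9.51 CPM in IVP discs and from 6.59 through 18.9 to 28.2 CPM in IVV discs. In CRABP2, 7 of the 9 IVV discs exceeded every IVP disc, and VE24 (6.59 CPM) and VE4 (8.24 CPM) fell within the IVP range. The log2 fold change was -1.31 (SE 0.29), or 2.49-fold lower (adjusted p = 0.00795).

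RARG (Entrez 540425), a nuclear receptor of retinoic acid, was called just inside the threshold. IVP discs ranged from 1.94 to 6.39 CPM with a median of 3.78, and IVV discs from 3.84 to 21.9 CPM with a median of 5.99. Above all IVP discs stood 4 IVV discs, and 4 IVP discs were below all IVV discs, so the groups overlapped in part. The log2 fold change was -1.18 (SE 0.35), or 2.27-fold lower (adjusted p = 0.0431). This call did not hold without the IVV embryo VE5 (-0.84, adjusted p = 0.168), with 2 surrogate variables (-1.05, adjusted p = 0.104) or with limma voom (-1.03, adjusted p = 0.0971), and it was lost when any 1 of 8 of the 16 embryos was left out.

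**Figure D2:**
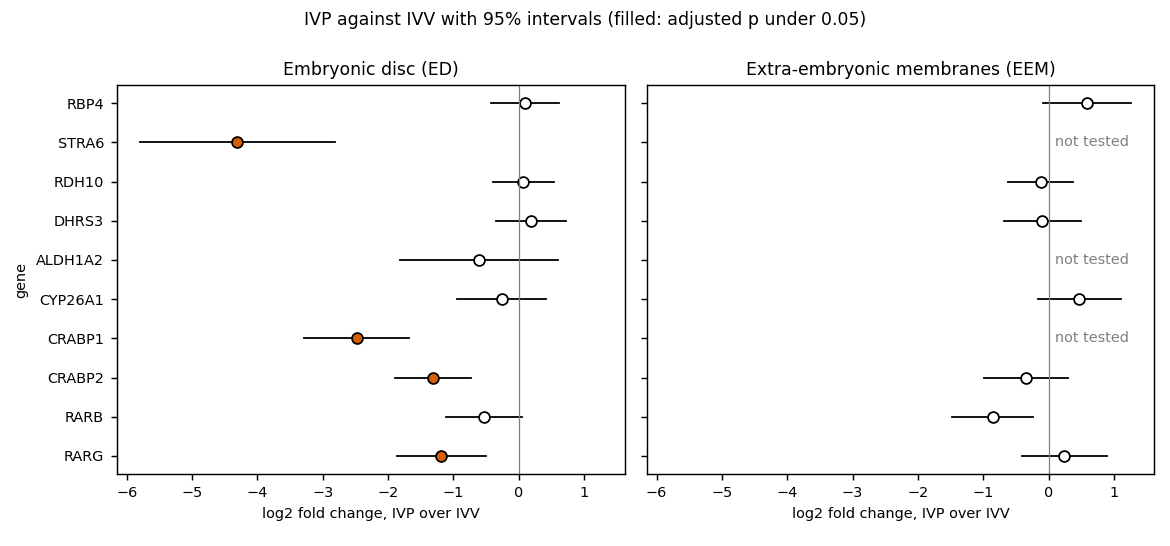
Log2 fold change of IVP over IVV (x axis) for each gene (y axis) in the ED (left) and the EEM (right), with lines for 95% intervals; filled points passed an adjusted p of 0.05. STRA6, CRABP1, CRABP2 and RARG lie left of 0 in the ED, no point is filled in the EEM, and 3 genes were too low there to be tested.

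The other nuclear receptor, RARB (Entrez 616895), which is known to be induced by its own ligand, was not called in the ED. Its level was 1.08 to 4.36 CPM (median 1.56) in IVP and 1.80 to 3.69 CPM (median 2.72) in IVV discs. Below all IVV discs lay 4 IVP discs, but IVPF10, at 4.36 CPM, lay above all of them (log2 fold change -0.53, 95% interval -1.11 to 0.05, adjusted p = 0.36).

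Of the enzymes RDH10, DHRS3 and CYP26A1 none passed the test in the ED. RDH10 (Entrez 282852) stood at 4.28 to 14.9 CPM (median 9.06) in IVP and 4.34 to 12.9 CPM (median 7.27) in IVV discs, a log2 fold change of 0.07 (95% interval -0.40 to 0.54). DHRS3 (Entrez 281482), which turns retinal back into retinol, held 6.83 to 26.8 CPM (median 15.4) and 6.93 to 22.3 CPM (median 13.7), a log2 fold change of 0.19 (-0.34 to 0.72). CYP26A1 (Entrez 539047), the enzyme of breakdown, held 13.4 to 56.4 CPM (median 27.3) and 12.3 to 97.1 CPM (median 37.8), a log2 fold change of -0.26 (-0.94 to 0.42). Adjusted p was 0.933, 0.811 and 0.795 for RDH10, DHRS3 and CYP26A1. The groups overlapped for each of these enzymes. The disc with the most CYP26A1, VE19, was the IVV disc with the least STRA6, but no inverse relation was seen over all discs. Pearson's r of CYP26A1 with STRA6 was 0.215 over 16 discs with the mean of each procedure removed. It was 0.841 within IVP and -0.247 within IVV discs, and was not tested.

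ALDH1A2 (Entrez 535075), the main enzyme of retinoic acid synthesis in gastrulating embryos, was close to the floor in every library. It reached at most 15 counts in an IVP disc and 16 in an IVV disc, with medians of 0.127 and 0.197 CPM, and 2 IVP discs held no count (log2 fold change -0.61, 95% interval -1.82 to 0.61, adjusted p = 0.701). RBP4 (Entrez 281444), the carrier of retinol, was at 32.8 to 147 CPM (median 84.4) in IVP and 41.7 to 110 CPM (median 94.3) in IVV discs (log2 fold change 0.10, 95% interval -0.42 to 0.62, adjusted p = 0.912).

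Primitive streak and mesoderm markers and the epiblast gene POU5F1 were also lower in IVP discs. POU5F1 was 16.5 to 39.6 CPM in IVP and 26.9 to 227 CPM in IVV discs (log2 fold change -1.72, adjusted p = 0.0048), the one called among 6 tested epiblast markers of a list of 8. Of the other 5, NANOG (-1.34, adjusted p = 0.0517) and OTX2 (-1.23, adjusted p = 0.0986) had an unadjusted p under 0.05, while LIN28A (-0.10), DNMT3B (-0.22) and SALL4 (-0.28) had adjusted p from 0.503 to 0.904. All 6 fitted values were below 0, with a median of -0.76. The summed level of that list was 234 to 578 CPM in IVP and 220 to 1029 CPM in IVV discs. Of 11 primitive streak and mesoderm markers, 10 were lower in IVP discs, where 4.95% of all genes were called lower and 6.34% in either direction, with sums of 14.8 to 58.0 CPM against 53.9 to 211 CPM. edgeR called 0 of the 14 trophoblast and 0 of the 13 tested hypoblast markers, with 0 of either at an unadjusted p under 0.05. The part of the streak and mesoderm marker levels in the lower member levels was not tested. The 4 genes were next set against each of the 6 tested epiblast markers in the same disc, a choice made after their values were seen. They had been called lower in these same discs, so the ratios give no independent support for those calls. The direction of a ratio follows in part from the fold changes given above.

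As a percentage of POU5F1 CPM in the same disc, STRA6 was 0 to 1.58 (median 1.16) in IVP and 0.668 to 6.51 (median 3.82) in IVV embryos (adjusted p = 0.00378, two-sided exact permutation test, 24 tests adjusted together). Each of these tests compared group means, whereas most values printed beside them are medians. CRABP1 was 0.231 to 2.84 (median 1.77) and 2.18 to 5.41 (median 2.89) percent (adjusted p = 0.0108, exact permutation test). Both were lower in IVP discs relative to POU5F1, and each of the 7 IVP discs was below the IVV median for both. CRABP2 gave medians of 24.0 and 20.3 percent (adjusted p = 0.327, exact permutation test), with a range of 19.1 to 39.7 in IVP discs and of 12.4 to 31.7 in IVV discs. RARG gave a higher percentage in IVP discs, with a mean of 14.04 against 10.07 percent (adjusted p = 0.0414, exact permutation test).

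STRA6 and CRABP1 were lower in IVP discs against each of the 6 epiblast markers, with adjusted p from 0.00262 to 0.0108 in the exact permutation tests, whereas the outcome for CRABP2 and RARG differed with the marker. STRA6 stood at a median of 3.05% of NANOG in IVP and 20.9% in IVV discs, and at 3.27% and 23.2% of OTX2 (adjusted p = 0.00262 for each, exact permutation test). CRABP1 stood at 7.26% and 18.0% of NANOG (adjusted p = 0.0042, exact permutation test) and at 5.83% and 13.5% of OTX2 (adjusted p = 0.00262, exact permutation test). The IVV mean of CRABP1 against OTX2 was 21.4%, with VE4 at 79.05%. Against NANOG and OTX2, which with POU5F1 had the lowest fitted values of the 6, CRABP2 and RARG did not pass the threshold, with adjusted p from 0.602 to 0.986 in the exact permutation tests.

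The other 3 markers, DNMT3B, LIN28A and SALL4, differed less between the procedures but were also present in the membranes, at medians of 74.8, 46.5 and 29.7 CPM in IVV EEM against 174, 64.7 and 46.4 CPM in IVV ED, so that a percentage of them is not one of a gene found in the disc alone. Against these 3, CRABP2 and RARG had lower medians in IVP discs. CRABP2 stood at a median of 5.07% of DNMT3B in IVP and 10.4% in IVV discs (adjusted p = 0.00581, exact permutation test), and against LIN28A and SALL4 it missed the threshold (adjusted p = 0.0596 for each, exact permutation test). RARG was lower against DNMT3B (2.20% and 4.54%, adjusted p = 0.00262, exact permutation test) and LIN28A (5.91% and 11.3%, adjusted p = 0.0417, exact permutation test), and missed the threshold against SALL4 (8.09% and 13.99%, adjusted p = 0.0582, exact permutation test). In the edgeR model the mean log2 CPM over the epiblast list, in which SOX2 and UTF1 are at 0, was used as a covariate. STRA6 (-2.73, adjusted p = 0.012) and CRABP1 (-1.86, adjusted p = 0.0048) remained called, while CRABP2 (-0.70, adjusted p = 0.17) and RARG (-0.33, adjusted p = 0.62) did not. This covariate was added after the data had been seen.

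**Figure D3:**
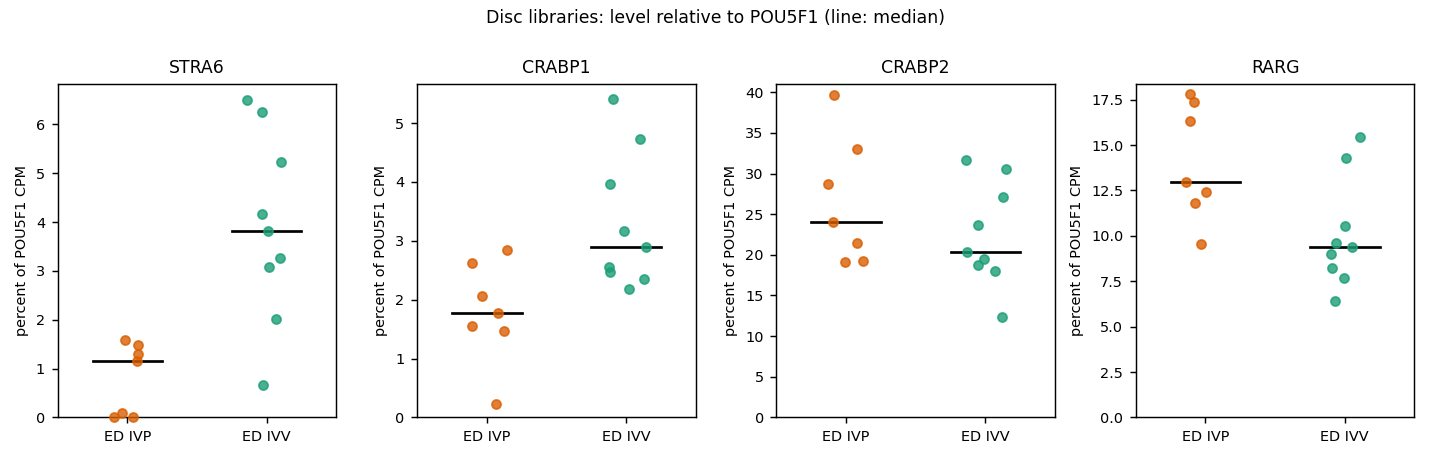
Level of STRA6, CRABP1, CRABP2 and RARG as a percentage of POU5F1 CPM (y axis, from 0) in the 7 IVP and 9 IVV disc libraries (x axis); lines are medians. STRA6 and CRABP1 sit lower in IVP discs, with medians of 1.16 against 3.82 and 1.77 against 2.89 percent, whereas CRABP2 and RARG do not against this marker.

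Among single discs, RARG and CRABP2 followed POU5F1 closely. With the mean of each procedure removed, log2 CPM of RARG and POU5F1 had Pearson's r of 0.883 over 16 discs (permutation p = 1e-05, the smallest the permutations can give, adjusted p = 0.0001 over 10 relations), Spearman's rho of 0.859 (permutation p = 0.00013), and r of 0.783 without the 2 discs farthest from the median. CRABP2 gave r = 0.856 (permutation p = 5e-05, adjusted p = 0.00025), rho = 0.806 (permutation p = 0.00093) and r = 0.711 without the 2 farthest discs. The r of RARG was 0.834 within IVP and 0.916 within IVV discs, and that of CRABP2 0.648 and 0.913. For CRABP1 the pooled r of 0.567 (permutation p = 0.0144, adjusted p = 0.0482, rho 0.634 with permutation p = 0.0116) went with 0.882 in IVV and 0.085 in IVP discs, and r was 0.838 without the 2 farthest discs. STRA6 had r = 0.542 (permutation p = 0.0275, adjusted p = 0.0688, rho 0.516 with permutation p = 0.0488, r without the 2 farthest discs 0.405), again with 0.796 in IVV and 0.066 in IVP discs. The difference between the procedures in these coefficients was not tested. The other 6 genes had r from -0.08 to 0.384 with POU5F1, and none passed the adjusted threshold.

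In the EEM the same comparison was made in 6 IVP and 8 IVV embryos. STRA6, CRABP1 and ALDH1A2 were too low there to pass the filter, and of the 7 genes tested edgeR called 0, where 3.81% of the 14718 genes tested were called, 2.29% higher and 1.52% lower. One gene, RARB, had an unadjusted p under 0.05, and DESeq2 and limma voom also called 0 members. The median log2 fold change was -0.10, beside 0.00 over all genes.

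RARB was at 1.22 to 3.41 CPM (median 2.38) in the EEM of IVP and 2.16 to 8.46 CPM (median 3.57) in that of IVV embryos, and 4 IVV membranes exceeded every IVP one. Its log2 fold change was -0.86 (SE 0.31, unadjusted p = 0.0116, adjusted p = 0.154). CYP26A1 was 17.3 to 85.7 CPM (median 36.2) in IVP and 23.4 to 54.7 CPM (median 31.5) in IVV membranes, with 2 IVP membranes below and 2 above all IVV membranes (log2 fold change 0.47, adjusted p = 0.644). RBP4 ran from 34.4 to 203 CPM (median 153) in IVP and from 29.6 to 132 CPM (median 95.9) in IVV membranes, and 4 of the 6 IVP membranes lay above all IVV ones (log2 fold change 0.59, 95% interval -0.09 to 1.27, adjusted p = 0.522).

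CRABP2 in the EEM held 2.71 to 8.51 CPM in IVP and 2.71 to 12.7 CPM in IVV embryos (log2 fold change -0.34, adjusted p = 0.825), and RARG 0.652 to 2.14 and 0.734 to 1.65 CPM (0.24, adjusted p = 0.922). RDH10 was at 3.95 to 14.4 and 4.17 to 10.5 CPM (-0.12, adjusted p = 0.977) and DHRS3 at 8.32 to 22.0 and 7.09 to 23.1 CPM (-0.10, adjusted p = 0.987). The 3 untested genes were close to the floor in both groups. ALDH1A2 had at most 13 counts in IVP and 11 in IVV membranes, CRABP1 at most 9 and 10, and STRA6 at most 3 in each.

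The disc and membranes of the same embryo were then set against each other, with embryo as a block. In the 8 IVV embryos 4 of the 10 genes were higher in the ED, STRA6, CRABP1, RARG and CRABP2, and none was lower. Of the 16784 genes tested 15.6% were called higher and 22.1% in either direction. The median log2 difference of the 10 genes was 0.87, beside -0.10 over all genes. With STRA6 at its lower bound this median could not change, since STRA6 stayed the largest value. This comparison shares its IVV discs with that of IVP and IVV discs.

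STRA6 was at the floor in the EEM, with at most 3 counts in any membrane and none in 6 of the 8 IVV membranes. Its mean in IVV discs, 4.11 ± 4.22 CPM (SD, n = 9), was at least 69.8-fold higher than that floor (adjusted p = 1.63e-07). CRABP1 differed by 4.70 on the log2 scale (SE 0.48, 25.9-fold, adjusted p = 5.74e-07), from 2.77 ± 1.29 CPM (SD, n = 9) in IVV discs to 0.108 ± 0.0817 CPM (SD, n = 8) in IVV membranes. For RARG the difference was 2.90 (SE 0.29, 7.47-fold, adjusted p = 3.81e-07), from 8.80 ± 5.75 to 1.07 ± 0.334 CPM. CRABP2, which the membranes also expressed at 2.71 to 12.7 CPM, differed by 1.40 (SE 0.28, 2.64-fold, adjusted p = 0.000793). Each of the 4 was higher in the disc in 8 of 8 IVV embryos, and the difference in log2 CPM ran from 0.20 to 3.36 for CRABP2 and from 1.20 to 4.72 for RARG.

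RARB went the other way in each IVV embryo: the disc was below the membranes in 8 of 8 pairs, by 0.20 to 1.36 in log2 CPM, but the fitted difference of -0.51 did not pass the adjusted threshold (SE 0.20, adjusted p = 0.0745). ALDH1A2, at very low counts, was above the membranes in 8 of 8 pairs (1.91, SE 0.68, adjusted p = 0.0518), and 3 of these membranes held no count. RDH10 (-0.07), DHRS3 (0.01), RBP4 (0.04) and CYP26A1 (0.34) had adjusted p between 0.242 and 0.98. Their 95% intervals ran from -0.36 to 0.21, from -0.38 to 0.39, from -0.33 to 0.40 and from -0.06 to 0.73.

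**Figure D4:**
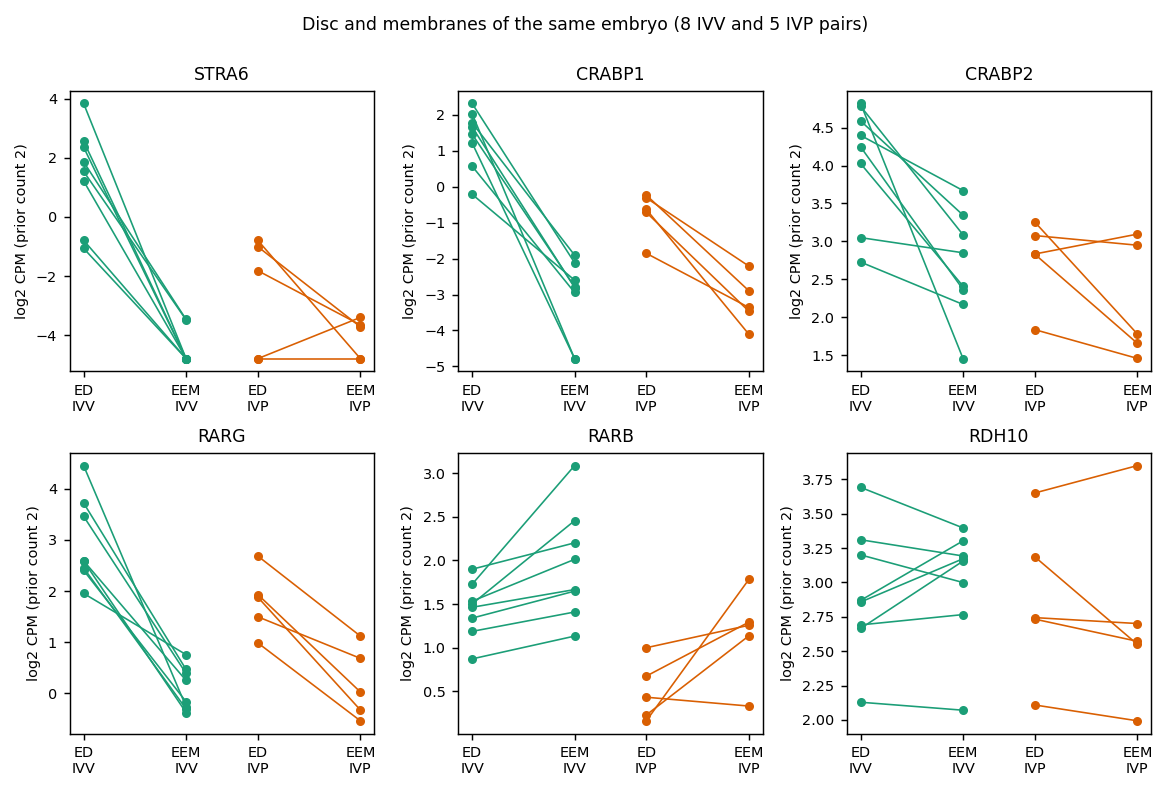
Log2 CPM (y axis, prior count 2) of 6 genes in the ED and EEM of the same embryo (x axis), 1 line for each of 8 IVV (green) and 5 IVP (orange) embryos. Lines fall from ED to EEM for STRA6, CRABP1, CRABP2 and RARG in all 8 IVV embryos and rise for RARB in 8 of 8; in IVP embryos the fall of CRABP1 and RARG is seen in 5 of 5.

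In the 5 IVP embryos with both tissues, CRABP1 and RARG were called higher in the disc, 2 of 10 genes where 4.18% of genes were called higher, 0.649% lower and 4.83% in either direction. The median was 0.17, beside -0.07 over all genes. Disc levels of CRABP1 were 0.241, 0.815, 0.574, 0.610 and 0.771 CPM in IVP10, IVP11, IVP14, IVPF13 and IVPF14, and membrane levels 0.0612, 0.0982, 0.0543, 0.0218 and 0.180 CPM, higher in the disc in 5 of 5 pairs (log2 difference 2.84, SE 0.62, adjusted p = 0.00812). RARG was at 1.94, 3.78, 6.39, 2.79 and 3.64 CPM in these discs and 0.652, 0.982, 2.14, 1.57 and 0.761 CPM in the membranes, again 5 of 5 (1.60, SE 0.35, adjusted p = 0.00815). STRA6 had no count in either tissue of IVP10 and none in the disc of IVP11, and 3 of 5 discs exceeded their membranes. Its mean over the 7 IVP discs, 0.227 ± 0.224 CPM (SD, n = 7), was at least 3.87-fold above the membrane floor, and the fitted difference had an adjusted p of 0.104. CRABP2 was higher in 4 of 5 discs (0.54, SE 0.34, adjusted p = 0.46), with IVP14 as the exception. RARB was lower in 4 of 5 discs (-0.71, SE 0.26, adjusted p = 0.146). CYP26A1 was lower in 4 of 5 discs (-0.56, SE 0.25, adjusted p = 0.263) and RBP4 in 3 of 5 (-0.52, SE 0.24, adjusted p = 0.264). Both had an unadjusted p under 0.05 with edgeR. ALDH1A2, RDH10 and DHRS3 had adjusted p from 0.678 to 0.807.

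Whether the disc-to-membrane difference itself differed between IVP and IVV embryos was tested as an interaction. With edgeR 0 of the 10 genes passed the adjusted threshold, where 1.02% of genes did (0.107% upward and 0.918% downward), and 5 had an unadjusted p under 0.05. These were STRA6 (-5.10, SE 1.48, adjusted p = 0.113), RARG (-1.30, SE 0.44, adjusted p = 0.213), CYP26A1 (-0.90, SE 0.32, adjusted p = 0.259), ALDH1A2 (-2.74, SE 1.08, adjusted p = 0.321) and CRABP1 (-1.86, SE 0.82, adjusted p = 0.417). STRA6 alone passed with DESeq2 (adjusted p = 0.0387), limma voom (adjusted p = 0.0393) and edgeR without a filter on low counts (adjusted p = 0.0242). Its fitted value rests on membranes at the floor. For CRABP1, CRABP2 and RARG a difference between the tissues in the effect of procedure was thus not shown.

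One of the 10 genes showed a relation between the tissues of an embryo that passed the adjusted threshold. Over all genes, 12 of 13 embryos had their ED deviate most like their own EEM. The share of all genes with such a relation was not counted. RDH10, the retinol dehydrogenase, in the disc and in the membranes of the same embryo gave Pearson's r of 0.835 over 13 embryos with the mean of each procedure removed (permutation p = 0.00156, adjusted p = 0.0156 over 10 relations), Spearman's rho of 0.808 (permutation p = 0.00181) and r of 0.763 without the 2 farthest embryos. Within IVP and within IVV embryos r was 0.896 and 0.784. IVP10 had 12.5 CPM in the disc and 14.4 CPM in the membranes, and IVP11 4.28 and 3.95 CPM. Among IVV embryos VE3 was high in both (12.9 and 10.5 CPM) and VE19 low in both (4.34 and 4.17 CPM). RBP4 (r = 0.617, permutation p = 0.0249, adjusted p = 0.125) and the other 8 genes, with r from 0.031 to 0.575, did not pass the adjusted threshold. STRA6 and CRABP1 had r of 0.031 and 0.05, with membranes near the floor.

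Genes with the most similar pattern were taken over the 16 discs from 11711 named genes with a mean of at least 1 CPM, as a description after removing the mean of each procedure. RARG was most like ASPHD2 (r = 0.968), NTN1 (0.951) and SMO (0.95), and CRABP2 most like DUSP18 (0.883), TCF7 (0.88) and TBX6 (0.877). For STRA6 these were ZNF134 (0.94), FOXO1 (0.918) and CHN1 (0.893), for CRABP1 CYBA (0.918), HDAC8 (0.909) and DHX58 (0.899), and for RARB PWP2 (0.956), SOX7 (0.945) and NFKB1 (0.927). CYP26A1 was most like JAM2 (0.933), RDH10 like DCAF1 (0.916), DHRS3 like PLSCR3 (0.884) and RBP4 like CKB (0.928). In the 14 membranes, with 11060 genes, CYP26A1 was most like GDE1 (0.957), DHRS3 like RHBDD1 (0.966) and RDH10 like IFT70B (0.941). The libraries share depth and tissue composition.

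Other genes of the retinoid pathway were described from fixed lists. Of 23 other retinoid enzymes 17 were tested in the ED, and 1 was higher and 1 lower in IVP embryos, where 1.4% and 4.95% of all genes were (median log2 fold change -0.18, beside -0.01 over all genes). ALDH1A3, another synthesizing enzyme, was higher, at 1.78 to 11.5 CPM (median 3.87) in IVP against 1.15 to 3.12 CPM (median 1.47) in IVV discs (1.35, SE 0.32, adjusted p = 0.0107). CYP26B1, which like CYP26A1 breaks retinoic acid down, was lower, at 0.204 to 0.721 CPM (median 0.42) against 0.382 to 2.30 CPM (median 0.92) (-1.48, SE 0.40, adjusted p = 0.0259). In the EEM 1 of 14 tested enzymes was called, where 2.29% of all genes were called higher and 3.81% in either direction. This was CYP1B1, a cytochrome that can act on retinoids, higher in IVP embryos at 0.763 to 13.7 CPM against 0.251 to 3.99 CPM (1.93, SE 0.55, adjusted p = 0.0491). ALDH1A3 in the EEM had a log2 fold change of 1.10 (adjusted p = 0.069).

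Among other carriers and uptake genes, TTR, which holds RBP4 in the circulation, stood out in the membranes. The EEM of the 6 IVP embryos held at most 1 count of it. In IVV membranes it was at 0 CPM at the lowest, 1.79 at the median and 4.94 at the highest, with 7 of 8 between 41 and 224 counts and VE4 at 0. The mean of the IVV membranes, 2.18 ± 1.77 CPM (SD, n = 8), was at least 37.2-fold higher than the floor of the IVP membranes (adjusted p = 3.21e-05), and TTR was the 1 called gene of 5 tested, where 1.52% of all genes were called lower. TTR is also a marker of hypoblast and endoderm, 14 of whose 15 listed markers were tested in the EEM, TTR being the only one called. Their sum was 1891 to 3235 CPM in IVP and 999 to 3562 CPM in IVV membranes.

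Of the other nuclear receptors and coregulators, 12 of 13 were tested in the ED and 11 in the EEM. Their fitted log2 fold changes for IVP over IVV ran from -1.41 to 0.57 in the ED, where 1 had an unadjusted p under 0.05, and from -0.23 to 0.18 in the EEM, where 0 had. edgeR called 0 in either tissue, where 6.34% of all genes were called in the ED and 3.81% in the EEM. RARA, the third retinoic acid receptor, had a median of 24.3 CPM in IVP discs and of 24.8 CPM, within 17.8 to 38.5, in IVV discs (-0.08, adjusted p = 0.916). RXRA, a partner of the receptors, had a log2 fold change of 0.30 (adjusted p = 0.735).

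Genes known to respond to retinoic acid moved in both directions. Of 25 tested in the ED, 3 were lower and 1 was higher in IVP embryos, beside 4.95% and 1.4% of all genes, and 12 had an unadjusted p under 0.05. The median was -0.51, and 19 of the 25 fitted values were below 0. RARRES2 (0.0926 to 0.249 CPM in IVP and 0.298 to 2.28 CPM in IVV discs, adjusted p = 0.00227), CDX1 (0 to 0.173 and 0.101 to 1.34 CPM, adjusted p = 0.00477) and NR2F1 (0 to 0.155 and 0.083 to 0.476 CPM, adjusted p = 0.028) were lower, all at low levels. CDX1 is a caudal-type homeobox gene of the posterior embryo, and NR2F1 an orphan nuclear receptor. TGM2, which encodes tissue transglutaminase, was higher, at 29.2 to 160 CPM (median 81.8) in IVP and 9.96 to 46.4 CPM (median 26.1) in IVV discs (1.62, SE 0.30, adjusted p = 0.00201). TGM2 was also the 1 gene called of the 18 tested in the EEM (2.29% of all genes were higher there), where it was higher in IVP embryos at 46.0 to 148 CPM against 18.6 to 44.5 CPM (log2 fold change 1.701, SE 0.24, adjusted p = 0.0001), without overlap of the groups.

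Between disc and membranes of IVV embryos, 8 of 25 responsive genes were higher in the disc and 0 lower, against 15.6% and 6.55% of all genes. MEIS2 (2.02, adjusted p = 0.000324) and RET (2.23, adjusted p = 0.00196) were among those higher. CDX1 was at the floor in the membranes and at least 10.3-fold higher in IVV discs (adjusted p = 1.48e-05). In the 5 IVP embryos 3 of the 25 were higher in the disc and 1 lower, against 4.18% and 0.649% of all genes. MEIS2 (1.69, adjusted p = 0.0415) and FGF8 (2.91, adjusted p = 0.0434) were among those higher, and NR2F1 was lower (-3.13, SE 0.85, adjusted p = 0.0387). NR2F1 was the 1 responsive gene called in the interaction (-5.14, SE 1.03, adjusted p = 0.0174), at medians of 0.0478 and 0.282 CPM in IVP and IVV discs and of 0.199 and 0.0678 CPM in IVP and IVV membranes.

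Retinoid enzymes other than the members also differed between the tissues of IVV embryos, where 7 of 18 tested were higher in the disc and 1 lower, against 15.6% and 6.55% of all genes. ADH4 (4.64, adjusted p = 2.84e-05), DHRS9 (1.33, adjusted p = 0.000673) and CYP1B1 (2.75, adjusted p = 0.00121) were higher. ADH4 and DHRS9 are dehydrogenases that can act on retinol. RDH16, at the floor in IVV membranes, was at least 4.38-fold higher in IVV discs (adjusted p = 0.000161). ALDH1A1 was lower in the disc (-0.62, adjusted p = 0.0293). Among the carriers, RBP5 was higher in the disc (1.07, adjusted p = 0.0149), while TTR (-3.04, adjusted p = 0.00148) and SCARB1 (-0.74, adjusted p = 0.0136) were lower. Among the receptors and coregulators, RARA was higher (0.54, adjusted p = 0.0383) and the coactivator NCOA1 lower (-0.47, adjusted p = 0.02). In IVP embryos edgeR called 0 of the 18 enzymes, 0 of 5 carriers and 0 of 12 receptors and coregulators between the tissues. There 4.83% of all genes were called in either direction.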

How the data were processed

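Poly(A) RNA of 30 ED and EEM pieces was sequenced without strand information. Per the labels and the study's methods, the authors filtered reads with SOAPnuke, aligned them with STAR 2.7.0b to ARS-UCD1.3 and deposited raw counts per Entrez gene from featureCounts (Subread 2.0.3), with no normalization. The submitters' processing notes also name FastQC 0.11.9 and Trimmomatic. A RefSeq gene table (ARS-UCD2.0) gave symbols to 31630 of 35092 IDs, with 99.5% of counts, and was used for names and neighbours only. No listed gene overlapping a member had counts, and 2 overlapping noncoding genes, at DHRS3 and RARB, are not among the counted IDs.

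Groups were taken from the labelled condition and tissue, and embryos from the title prefix. CPM used TMM factors over all libraries, and log2 CPM a prior count of 2. edgeR 4.0.16 in R 4.3.3 (TMM, filterByExpr with at least 10 counts, quasi-likelihood test, Benjamini-Hochberg threshold 0.05 over all genes tested) compared IVP with IVV in each tissue with 1 surrogate variable from svaseq (sva 3.50.0), since the study used sva for morphology without giving a number. ED and EEM were compared in 26 libraries of 13 embryos with embryo as a block; pairing comes from the titles, and 12 of 13 embryos had their ED deviate most like their own EEM (r from -0.19 to 0.639). SE is the log2 fold change over the root of F, and intervals (95%) are 1.96 SE. A group was at the floor when each library had at most 3 counts. Permutation tests used scipy 1.17.1, with 100000 permutations within procedure for correlations.

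The members and the lists of other genes were chosen with earlier results of these data known. Of each list the text names genes past the threshold, at most the 4 with the smallest p in each direction and comparison, and other values were chosen after they had been seen. Some genes that this rule names are not reported here. RBPR2 and LEFTY1 were not found among the symbols. Alternatives were DESeq2 1.42.0, limma 3.58.1 voom, other scaling, filters, surrogate variables and covariates, halved counts and leaving out each embryo. The fits were tested on simulated data.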

Additional observations from a re-analysis of the deposited data

Results flagged for a closer look

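Among the members, 1 value stood apart from its group. CRABP2 in the ED of the IVP embryo IVP10 was 3.54 CPM (191 counts), and its gap to the nearest of the other IVP discs took up 0.701 of the range of the group on the log2 scale. The other IVP discs lay between 7.08 and 9.51 CPM. The same disc had the least POU5F1 (16.4 CPM), RARG (1.94 CPM), CYP26A1 (13.4 CPM) and DHRS3 (6.83 CPM) of the IVP discs and no count of STRA6. RARA in that disc, at 10 CPM (540 counts), also lay apart from the other IVP discs. Of the other named genes, SCARB1 in the ED of IVPF10 (81.0 CPM), RARA in the EEM of VE24 (8.84 CPM), MEIS2 in the EEM of IVP14 (0.0725 CPM, 4 counts), RARRES2 in the EEM of VE4 (0.0376 CPM, 2 counts) and TTR in the EEM of VE4 (0 counts) were also apart from and below the rest of their groups, with gaps of 0.545 to 0.656 of the range. The 7 such values came from 122 groups of libraries, and chance flags about 1 group in 20.

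The disc-to-membrane difference of NR2F1 differed between IVP and IVV embryos (interaction -5.14 on the log2 scale, adjusted p = 0.0174, edgeR), at the low levels given above. It was the 1 named gene for which this interaction passed the threshold.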

How the results depend on the processing

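Of 1017 values of single members under the alternatives, 959 kept their direction and side of the threshold, 14 lost and 12 gained a call, and 32 changed sign, 0 of them with a call. The count of members called in the ED went from 4 to 1 with at least 10 counts required in every library, which leaves STRA6 and CRABP1 untested and gives RARG an adjusted p of 0.0517, and to 2 with the epiblast marker level as a covariate. With that filter the ED against EEM counts fell to 2 in IVV and 1 in IVP embryos, and the interaction gave 1 with no filter, DESeq2 or limma voom. In the ED, leaving out 1 embryo gave 3 or 4 members, and the calls of STRA6 (-4.99 to -3.69), CRABP1 (-2.84 to -2.18) and CRABP2 (-1.46 to -1.14) held in all 16 such fits. RARG lost its call in 8 of them (-1.32 to -0.84). Without the embryo block, in all 30 libraries, 4 members were called in IVV, 3 in IVP embryos and 0 in the interaction. STRA6 in IVP embryos passed without the block (3.20, adjusted p = 0.0417), without a filter (2.80, adjusted p = 0.0285) and without IVP11 (3.79, adjusted p = 0.0203). ALDH1A2 in IVV embryos passed with DESeq2 (adjusted p = 0.0172), DESeq2 size factors (adjusted p = 0.0498) and limma voom (adjusted p = 0.0364), and RARB with limma voom (adjusted p = 0.0362). Where not stated, the cause was not tested. Over all genes, the calls went from 998 to between 431 and 1846 in the ED, from 561 to between 146 and 1211 in the EEM, from 3711 to between 1420 and 4125 for ED against EEM in IVV embryos, from 810 to between 194 and 1201 in IVP embryos, and from 172 to between 11 and 435 in the interaction. ALDH1A2 had at most 16 counts in any library, and STRA6 and CRABP1 at most 3 and 10 in the EEM.

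The sign changes were all in log2 values without a call. RDH10 in the ED became -0.001412 with the strict filter, -0.08976 with XIST as a covariate and -0.04819 with the epiblast covariate, and DHRS3 -0.00766 with XIST. In the EEM, CYP26A1 became -0.03334 with 2 surrogate variables, RDH10 0.07122 and CRABP2 0.04177 with XIST, and DHRS3 0.001555 with the title letter as a factor. For ED against EEM in IVV embryos, RDH10 became 0.001773 with the strict filter, DHRS3 -0.002164 with no filter and RBP4 -0.03958 without the embryo block, and RARB became 0.4657 in the interaction without the block. Leaving out 1 embryo moved RDH10 between -0.01971 and 0.3456 and RBP4 between -0.1089 and 0.2383 in the ED. In the EEM it moved RDH10 between -0.3526 and 0.001768, DHRS3 between -0.3454 and 0.05927 and RARG between -0.0001287 and 0.4356. For ED against EEM the ranges were -0.1014 to 0.1105 for DHRS3 and -0.07433 to 0.1204 for RBP4 in IVV embryos, and -0.01086 to 0.2132 for RDH10 and -0.07494 to 0.4379 for DHRS3 in IVP embryos. In the interaction they were -0.07459 to 0.4305 for DHRS3 and -0.3797 to 0.04177 for RARB.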
